A study of Schizosaccharomyces pombe
Saccharomyces cerevisiae with 24 samples.

Results

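The tRNA genes of budding yeast were described in 24 RNA-seq libraries of total, newly made and pre-existing RNA. They were chosen by name alone, as every gene whose identifier begins with a lower-case t, 1 capital letter for the amino acid and an opening bracket that holds the anticodon, as in tI(UAU)L. This gave 299 of the 7127 genes in the count table, of which 275 are nuclear and 24, with identifiers that end in Q, are mitochondrial. In the nuclear names the letter after the bracket is the chromosome, and the genes fall into 65 families of 1 genome, amino acid and anticodon, 42 nuclear and 23 mitochondrial. Identifiers were the only annotation used here, so no coordinates or sequences are given.

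A tRNA carries 1 amino acid to the ribosome and reads the matching codons of an mRNA through its anticodon. Nuclear tRNA genes are transcribed by RNA polymerase III as precursors, which are trimmed at both ends, spliced where the gene holds an intron, and heavily modified. Mitochondrial tRNAs are transcribed inside the organelle by a separate polymerase. Mature tRNAs are short, folded and stable, so that they make up much of the RNA of a cell and yet give few reads in libraries made for mRNA. The wobble uridine of the tRNAs for lysine, glutamine and glutamate that read codons ending in A carries a natural sulfur, a 2-thiouridine.

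The cells were diploid S. cerevisiae of strain W303, grown in yeast extract and peptone with raffinose and then given galactose for 20 or 60 min. At each time cells received 4-thiouracil (4sU), a base analog with a thiol group, for 6 min, or received none. S. pombe cells labeled with 4sU were mixed into every sample as a spike-in, the thiols in the RNA were coupled to biotin, and streptavidin beads split the RNA into a bound (labeled) and an unbound (unlabeled) fraction beside the unsplit (total) RNA. Each of the 12 groups of fraction, 4sU and time held 2 biological replicates, and the libraries without 4sU were the negative control of the pull-down.

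Library totals ran from 6600472 to 38373886 counts in labeled RNA with 4sU and from 1073888 to 4751222 in labeled RNA without it. They ran from 2910909 to 10320711 in unlabeled RNA and from 4380685 to 25744071 in total RNA. The S. cerevisiae cells were a culture of 1 cell type, so no markers of other cells were examined. The sample without 4sU at 20 min, replicate 1, stood apart in its 5S rRNA gene RDN5-1, with 183 counts in labeled, 2960 in unlabeled and 1709 in total RNA against at most 41 in every other library. Its labeled library also stood apart in normalized counts. tRNA gene sums were 132 nuclear and 161 mitochondrial, against 4.77 to 13.9 and 14.0 to 19.7 in the other 3 labeled libraries without 4sU. This was not particular to tRNA genes, since SCR1, another RNA polymerase III transcript, had 192598 against 3921 to 25716. As a share of all counts, tRNA genes took 0.00698 to 0.0102% of these 4 labeled libraries. Normalized counts are raw counts scaled to 2000000 S. pombe reads. Comparisons with libraries without 4sU are given with and without this sample.

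tRNA genes took a very small part of every library. In total RNA with 4sU their share of all counts was 0.0102 to 0.0162%, and in total RNA without 4sU it was 0.0102 to 0.0135%. Labeled RNA with 4sU held 0.00931% and 0.0167% at 20 min in replicates 1 and 2, and 0.0381% and 0.0172% at 60 min. The 60 min replicate 1 library was far above the other 3, while the lowest of the 4 lay below every total library. Unlabeled RNA with 4sU had the lowest shares, 0.00417 to 0.00634%, which did not overlap with the 0.0102 to 0.0220% of unlabeled RNA without 4sU. The 95% Wilson interval of the lowest share, in the unlabeled 20 min replicate 2 library with 4sU, was 0.00367 to 0.00474%. Intervals cover counting error only, and reads shared by gene copies were counted on each copy.

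**Figure D1:**
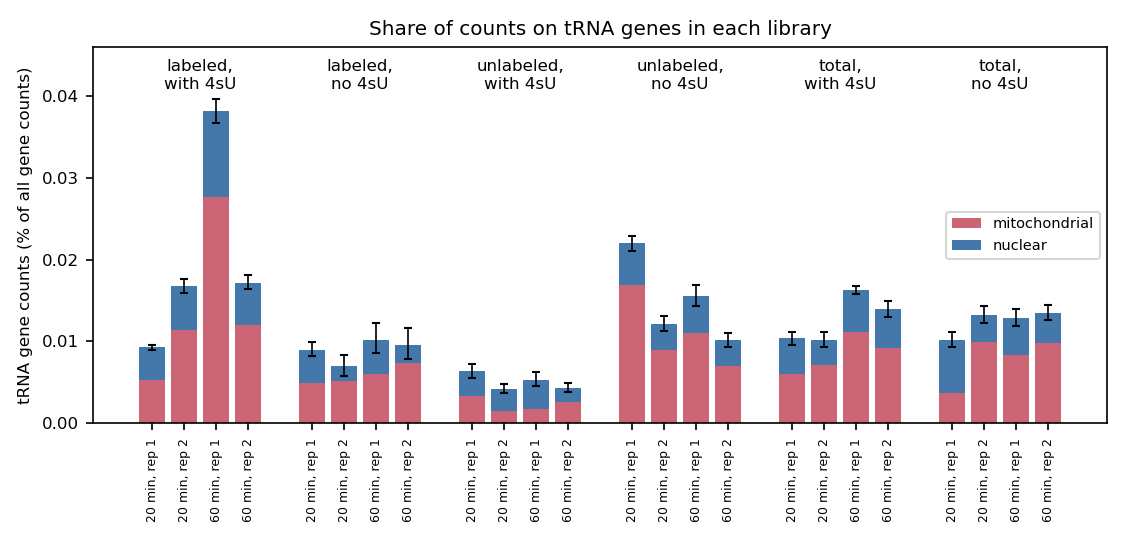
Percent of all gene counts that fell on tRNA genes (y axis) in each of the 24 libraries (x axis, grouped by fraction and 4sU), stacked as mitochondrial (red) and nuclear (blue), with 95% Wilson intervals of the summed share. The labeled 60 min replicate 1 library with 4sU stood highest, at 0.0381%, and the 4 unlabeled libraries with 4sU stood lowest, at 0.00417 to 0.00634%.

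The 24 mitochondrial genes often outweighed the 275 nuclear genes. They took 56.4 to 72.5% of the tRNA counts in labeled RNA with 4sU and 68.8 to 77.1% in unlabeled RNA without 4sU, but 33.5 to 59.2% in unlabeled RNA with 4sU, which did not overlap with the latter. In total RNA the mitochondrial part was 58.1 to 69.8% with 4sU and 36.7 to 74.7% without. The low value of 36.7% came from the 20 min replicate 1 sample named above.

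Counts were spread very unevenly over the genes. Of the 299 tRNA genes, 38 had no count in any library, all of them nuclear, 197 reached a highest count of 1 to 9, and 64 reached at least 10 counts in 1 library or more. The 64 were 42 nuclear and 22 mitochondrial genes, and only these entered the comparisons between groups. At the edge of this threshold, 4 genes had a highest count of exactly 10 and 5 had a highest count of 9. The depth of the libraries set part of this list, since 20 of the 42 nuclear genes reached 10 counts only in the 2 deepest libraries. The mitochondrial tR(UCU)Q1, for arginine, and tW(UCA)Q, for tryptophan, stayed below 10 with 16 and 18 counts over all libraries.

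By amino acid, nuclear lysine tRNA genes had the most counts, 1532 over the 24 libraries on 21 genes, followed by aspartate with 813 on 16 genes and histidine with 578 on 7. At the other end, the 4 nuclear cysteine genes had 8 counts together and the 16 alanine genes 62. A(AGC), the main alanine family, had 11 copies, 7 of which had no count at all, and 21 counts in sum. Of the mitochondrial genes, tP(UGG)Q for proline had 3148 counts, tE(UUC)Q for glutamate 2129, tS(UGA)Q2 for serine 1768 and tM(CAU)Q2 for methionine 1602. These sums do not rank how much of each tRNA the cells held, because lengths, modifications and mapping differ between genes, and libraries of unequal depth and fraction were added up. In 19 of the 41 nuclear families with a named anticodon no copy reached 10 counts, and the 2 genes with no assigned anticodon, tX(XXX)D and tX(XXX)L, had 44 counts together.

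Copies of one family did not share the same counts. Among 247 pairs of nuclear genes of 1 family that each had at least 10 counts over all libraries, none had the same counts in all 24 libraries. In the 17 nuclear families with at least 3 copies and 100 counts, the highest copy held between 19.9% (tE(UUC)E2, 33 of 166 counts) and 95.3% (tT(UGU)G2, 324 of 340) of the family, with a median of 47.0% and over 50% in 7 families. Single copies also led Q(UUG), where tQ(UUG)H held 273 of 316 counts, N(GUU), where tN(GUU)P held 336 of 421, and F(GAA), where tF(GAA)P1 held 260 of 357. In lysine K(UUU) all 7 copies reached 10 counts in a library. Their sums were 551 for tK(UUU)D, 209 for tK(UUU)P, 140 for tK(UUU)K, 108 for tK(UUU)O, 86 for tK(UUU)L, 51 for tK(UUU)G2 and 28 for tK(UUU)G1. The 2 copies of I(UAU), the minor isoleucine tRNA that reads the rare AUA codon, had 380 counts on tI(UAU)L and 73 on tI(UAU)D.

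**Figure D2:**
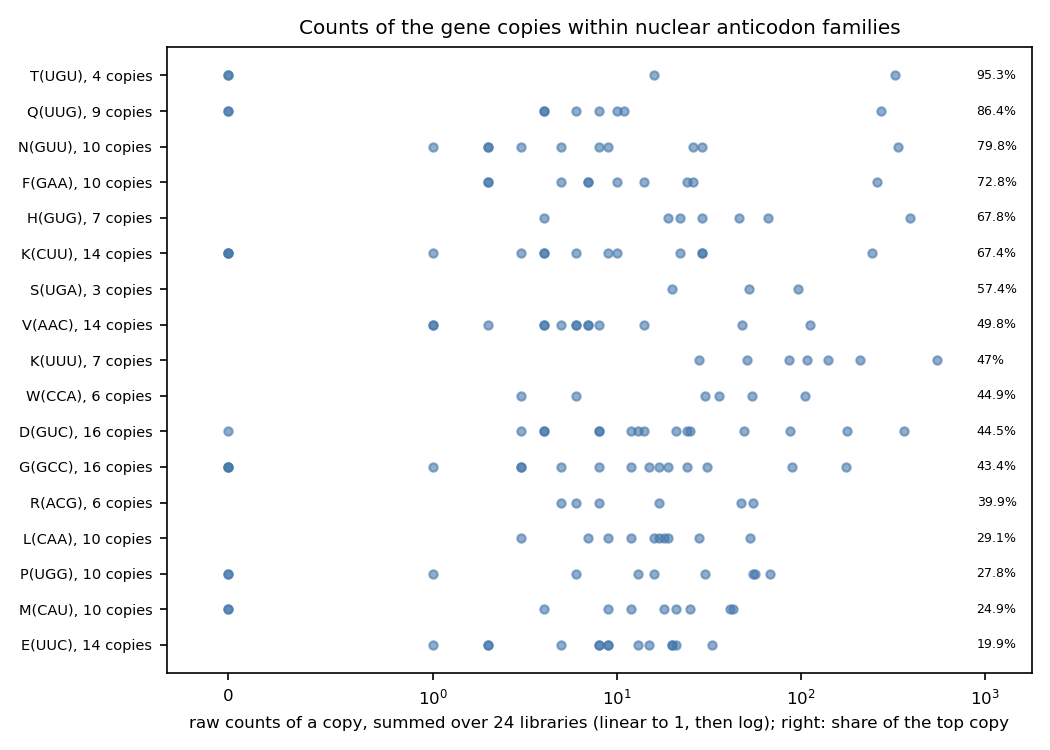
Raw counts summed over the 24 libraries (x axis, linear to 1 and log above) for each gene copy (points) in the 17 nuclear anticodon families with at least 3 copies and 100 counts (rows), with the percent of the family on the highest copy at the right. The highest copy ranged from 19.9% of E(UUC) to 95.3% of T(UGU).

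On a list of 10 families whose nuclear genes carry an intron, 16 of 59 genes (27.1%) reached 10 counts, against 26 of 214 genes (12.1%) in the other 31 families. Of the 16 genes 7 were K(UUU) copies, and without that family the share was 9 of 52 (17.3%). On the list of families with a 2-thiouridine, nuclear K(UUU), E(UUC) and Q(UUG), 9 of 30 genes did so, 7 of them in K(UUU), and all 3 mitochondrial counterparts did. Both lists were written from general knowledge of yeast tRNAs.

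In labeled RNA with 4sU, the nuclear genes with the highest mean normalized counts were tI(UAU)L at 69.7 ± 110 (SD, n = 4 libraries of both times), tD(GUC)N for aspartate at 52.8 ± 20.9 and tN(GUU)P for asparagine at 39.2 ± 19.4. Next came tH(GUG)G2 for histidine at 33.7 ± 8.36 and tK(UUU)D at 33.6 ± 12.8. The SD of tI(UAU)L was above its mean, and 1 library made it so. That was 60 min replicate 1 at 235, beside 18.9, 9.52 and 15.3, each below the means of the other nuclear genes named. Its first rank rested on that library. The highest mitochondrial genes were tP(UGG)Q at 309 ± 133, tS(UGA)Q2 at 205 ± 78.9, tE(UUC)Q at 195 ± 66.3, tM(CAU)Q2 at 143 ± 78.9 and tY(GUA)Q for tyrosine at 90.2 ± 67.9.

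In total RNA with 4sU the leading nuclear genes were partly others. They were tK(UUU)D at 13.0 ± 6.17 (SD, n = 4), tT(UGU)G2 for threonine at 9.71 ± 4.49, tH(GUG)G2 at 9.34 ± 3.18, tF(GAA)P1 for phenylalanine at 6.94 ± 1.11 and tQ(UUG)H for glutamine at 6.90 ± 5.06. Only tK(UUU)D and tH(GUG)G2 were among the first 5 in both fractions. The leading mitochondrial genes were tP(UGG)Q at 69.0 ± 11.8, tE(UUC)Q at 38.5 ± 3.63, tS(UGA)Q2 at 34.6 ± 16.1, tM(CAU)Q2 at 33.1 ± 13.8 and tR(ACG)Q2 for arginine at 20.2 ± 9.62, of which the first 4 were also the first 4 in labeled RNA.

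The comparison of labeled with total RNA asks which transcripts are over- or underrepresented among RNA made during the pulse. The bound RNA also passed over columns that retain mainly RNA longer than mature tRNAs, a step not described for total RNA. What this step did to the ratios of short RNAs was not tested. On a scale relative to most genes, nuclear tRNA genes were called lower in labeled RNA about as often as all genes, but seldom higher. Those called lower included glutamine Q(UUG), threonine T(UGU) and lysine K(UUU) genes. For this comparison counts were scaled by TMM, the trimmed mean of M-values, and are given as CPM, the usual rescaling of counts to a common library total. Of 6069 genes tested with edgeR's quasi-likelihood test at a Benjamini-Hochberg adjusted p below 0.05, 64.3% were called, 34% higher and 30.3% lower in labeled RNA. Of the 58 tRNA genes that were tested and had at least 10 counts, 15 were lower and 1 was higher. The threshold leaned on the arms compared, since 4 of the 58 reached 10 counts in total RNA with 4sU only. Another 5 did so in labeled RNA with 4sU only. Among the 36 nuclear genes 13 were lower and 1 higher, with a median log2 ratio of -1.11, and among the 22 mitochondrial genes 2 were lower, with a median of -0.74. The median of all genes tested was 0.02. All 22 mitochondrial ratios were below 0, the lowest called being tS(GCU)Q1 at -1.14 and tP(UGG)Q at -0.94 (SE 0.27, adjusted p = 0.0089). Where no 4sU was given, the 58 genes also had a median below that of all genes, -0.81 against -0.07. It was -1.97 with the 20 min replicate 1 sample left out.

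The strongest lysine gene showed the difference in every library. tK(UUU)D had 1.54 and 2.30 CPM at 20 min and 1.91 and 0.942 at 60 min in labeled RNA, against 7.05 and 6.11 at 20 min and 6.31 and 2.38 at 60 min in total RNA. The lowest total library was just above the highest labeled library, so the fractions did not overlap. Its log2 ratio was -1.82 (SE 0.34, adjusted p = 0.00061 by the edgeR quasi-likelihood test, Benjamini-Hochberg adjusted).

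The glutamine gene tQ(UUG)H had 0.488 and 0.592 CPM at 20 min and 0.382 and 0.404 at 60 min in labeled RNA. In total RNA it had 4.91 and 2.16 at 20 min and 2.78 and 1.32 at 60 min. All 4 labeled values were below all 4 total values, and its log2 ratio was -2.66 (SE 0.40, adjusted p = 0.00012 by edgeR with Benjamini-Hochberg adjustment). The threonine gene tT(UGU)G2, which is on neither list, had 0.808 and 1.45 at 20 min and 0.860 and 0.606 at 60 min in labeled RNA, and 5.52 and 4.31 at 20 min and 3.03 and 3.17 at 60 min in total RNA. It did not overlap either, and fell by 2.17 on the log2 scale (SE 0.32, adjusted p = 0.00011 by edgeR with Benjamini-Hochberg adjustment).

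Of the 7 nuclear genes of the 2-thiouridine families that were tested, 6 K(UUU) copies and tQ(UUG)H, 6 were lower in labeled RNA, and the median log2 ratio was -2.10. The called copies were tK(UUU)L at -2.61, tK(UUU)O at -2.17, tK(UUU)P at -2.10, tK(UUU)D at -1.82 and tK(UUU)K at -1.47. The remaining copy, tK(UUU)G2, had a ratio of -1.32 (SE 0.89) and did not pass the test. It reached 10 counts in total RNA with 4sU only, so its place among the 7 came from that arm. Copies of K(UUU) can share reads and are not separate observations. The 3 mitochondrial genes of the same families, tK(UUU)Q, tE(UUC)Q and tQ(UUG)Q, were not called and had a median of -0.72. On the intron list, which also holds K(UUU), 6 of 14 genes were lower with a median of -1.31, and in the other nuclear families 7 were lower and 1 higher of 22 with a median of -1.05. Leaving out replicate 1 left 1 of the 7 nuclear 2-thiouridine genes called (median -1.57), and leaving out replicate 2 left 5 (median -2.26). Over all 36 nuclear genes the number lower was then 3 and 9.

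The lowest single ratio was that of the serine gene tS(UGA)P at -4.20 (SE 1.05, adjusted p = 0.0025 by edgeR with Benjamini-Hochberg adjustment), which rested on few reads. It had 1, 0, 2 and 0 raw counts in the labeled and 4, 1, 14 and 1 in the total libraries, a ratio of 0.0363 with an exact counting interval of 0.00691 to 0.122. It reached 10 counts in total RNA with 4sU only. The histidine gene tH(GUG)E2 was also lower, at -2.42 (SE 0.80, adjusted p = 0.017 by the same test).

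One aspartate gene went the other way. tD(GUC)N had 2.50 and 2.11 CPM at 20 min and 2.01 and 3.57 at 60 min in labeled RNA, against 1.23 and 0.719 at 20 min and 1.45 and 0.264 at 60 min in total RNA. The fractions did not overlap, and the log2 ratio was 1.30 (SE 0.41, adjusted p = 0.016 by edgeR with Benjamini-Hochberg adjustment). Its ratio was also above 0 where no 4sU was given, at 2.41, called by DESeq2 but not by edgeR. The ratio without 4sU rested on 7 and 4 labeled reads at 20 min and 14 and 4 at 60 min. Total RNA without 4sU held 5 and 3 reads at 20 min and 1 and 1 at 60 min. Why the ratio was above 0 in both arms was not tested. tD(GUC)N was not called in the interaction test given below. It was the highest of 16 aspartate copies, with 362 of 813 counts, while the sum over the whole D(GUC) family had a ratio of -0.28 (SE 0.29) and was not called. The isoleucine gene tI(UAU)L had a ratio of 0.53 (SE 0.94), also not called.

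**Figure D3:**
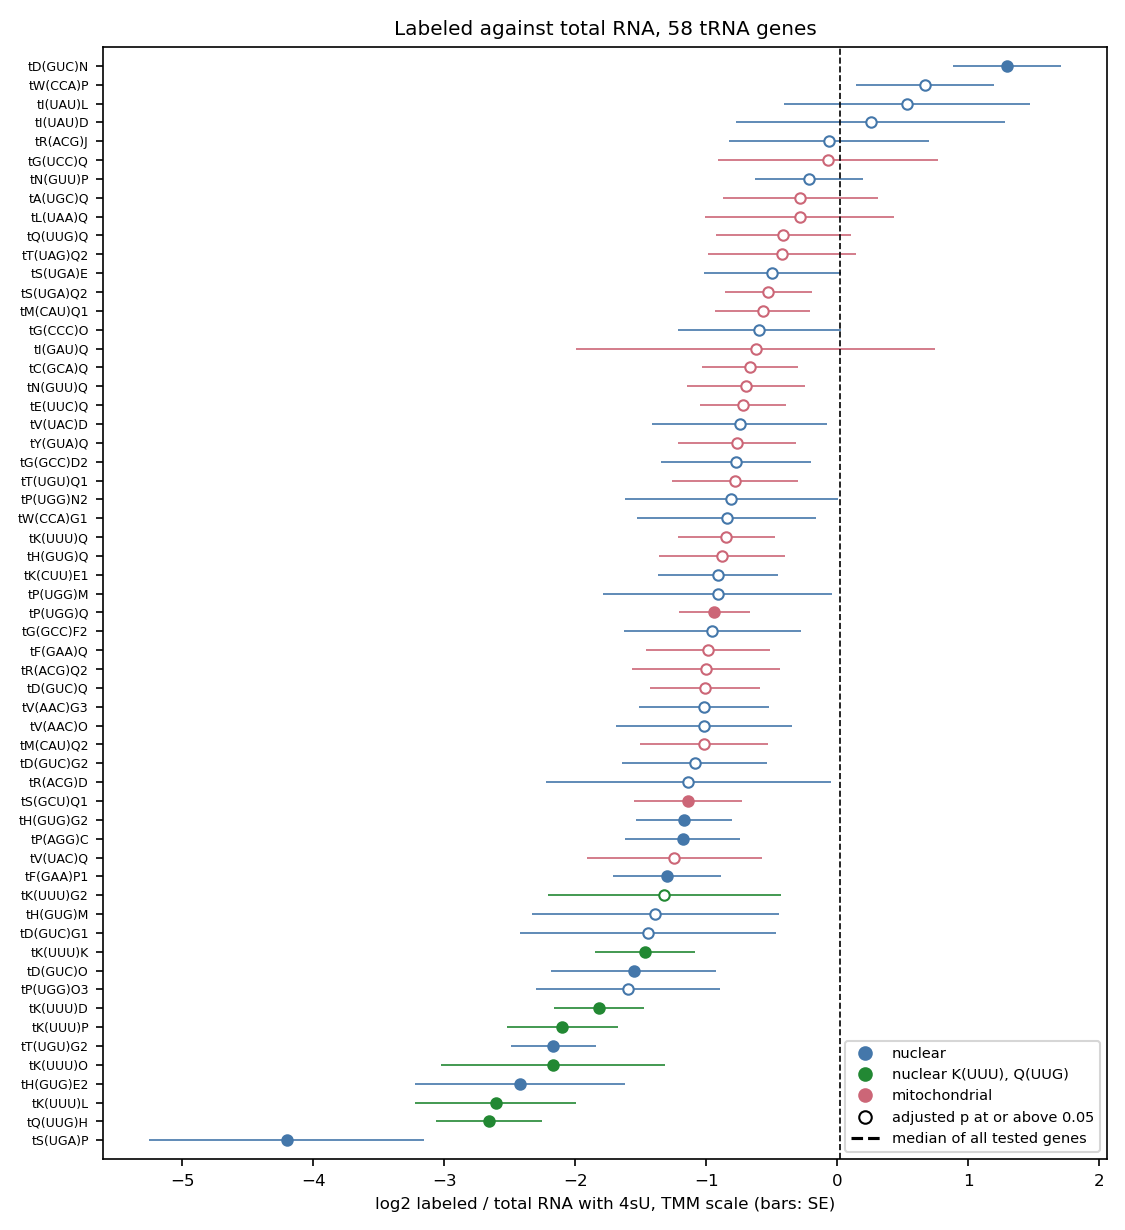
Log2 ratio of labeled to total RNA with 4sU on the TMM scale (x axis, bars 1 SE) for the 58 tRNA genes tested that had at least 10 counts (rows, in order of their ratio), with the median of all genes tested as a dashed line. Filled points passed an adjusted p below 0.05, and nuclear K(UUU) and Q(UUG) genes are in green. Of the 16 called genes 15 lie below 0 and tD(GUC)N lies above it at 1.30.

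Because copies can share reads, the comparison was repeated on sums per family. A read shared by copies still counts once for each copy in these sums, so they do not remove the sharing. On these sums 64.4% of all features were called, 30.4% lower, and of the 49 tRNA families 13 were lower and none higher. Q(UUG) was lowest at -2.45 (SE 0.39, adjusted p = 0.00019 by edgeR with Benjamini-Hochberg adjustment), then T(UGU) at -2.09 (SE 0.34, adjusted p = 0.00021) and K(UUU) at -1.86 (SE 0.29, adjusted p = 0.00017). The other called nuclear families were S(AGA) at -1.61, R(UCU) at -1.50, H(GUG) at -1.24, P(AGG) at -1.16, K(CUU) at -1.15, M(CAU) at -1.09, F(GAA) at -1.05 and P(UGG) at -0.90. The glutamate family E(UUC), the remaining nuclear 2-thiouridine family, had a ratio of -0.80 (SE 0.48) and was not called. On the intron list, I(UAU) at 0.43, L(CAA) at 0.05, W(CCA) at -0.46 and Y(GUA) at -0.77 were not called. Nor were the mitochondrial sums of K(UUU) at -0.85, E(UUC) at -0.72 and Q(UUG) at -0.41.

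These ratios are relative to most genes. On the S. pombe scale, whose spike-in RNA carried 4sU and was pulled down too, the median of all genes moved from 0.02 to 3.13, and 52 of the 58 genes were then higher and none lower, where 98.9% of all genes were called. The K(UUU) and Q(UUG) genes had a median of 1.03 on that scale, which is -2.10 relative to all genes.

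Without 4sU the labeled fraction is RNA that the beads held although no pulse was given. None of the 7 nuclear 2-thiouridine genes was called in it. Their median ratio to total RNA was -0.37, against -0.07 for all genes and -0.76 for the 36 nuclear tRNA genes. These ratios rested on few labeled reads, as in tK(UUU)D with 17 and 3 counts at 20 min and 1 and 0 at 60 min. The lack of calls therefore cannot decide whether these genes were enriched. Of the 58 tRNA genes 1 was called, where 21% of all genes were and 5.21% were lower, namely the mitochondrial methionine gene tM(CAU)Q2. It had 5.26 and 2.73 CPM at 20 min and 1.21 and 2.72 at 60 min in the labeled libraries, against 5.42 and 16.4 at 20 min and 5.38 and 11.9 at 60 min in the total libraries. Its labeled values were below its total values, with a narrow gap, and its ratio was -1.71 (adjusted p = 0.0412 by edgeR with Benjamini-Hochberg adjustment). tD(GUC)N had a ratio of 2.41 (SE 0.84, adjusted p = 0.0593 by the same test) and was not called by edgeR, though its labeled and total values did not overlap and DESeq2 called it higher, beside tM(CAU)Q2 and tP(UGG)Q lower. In the sums per family 1 was lower, mitochondrial M(CAU) at -1.68 (SE 0.45, adjusted p = 0.028 by edgeR with Benjamini-Hochberg adjustment), where 21.1% of all features were called and 5.21% were lower.

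This comparison depended on the 20 min replicate 1 sample. There tK(UUU)D had 6.39 CPM in the labeled library against 1.17, 0.607 and 0 in the other 3, and tQ(UUG)H had 5.64 against 0, 0.607 and 1.64. With the 2 libraries of that sample left out, 15 of the 58 genes were lower and 1 higher, where 59.7% of all genes were called, with medians of -2.52 for nuclear and -1.58 for mitochondrial genes. Of the 7 nuclear 2-thiouridine genes 1 was then called, and their median was -1.76. In the sums per family 15 were then lower, where 59.8% of all features were called.

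Whether the labeled-to-total ratio itself differed with and without 4sU was tested as an interaction. By edgeR's quasi-likelihood test none of the 58 genes was called, where 1.38% of all genes were (0.0824% higher and 1.3% lower), 4 had an unadjusted p below 0.05, and DESeq2 called none. The 4 were tK(UUU)L at -3.10, tK(UUU)P at -2.38, tS(UGA)P at -3.78 and tQ(UUG)H at -2.03 (log2 of the ratio of ratios). All 7 nuclear 2-thiouridine genes had values below 0, with a median of -2.03 against -0.04 for all genes, but without replicate 1 that median was -0.29 and without replicate 2 it was -2.64. Without the 20 min replicate 1 sample that had no 4sU, none of the 58 was called by edgeR, where 14.4% of all genes were, and 8 had an unadjusted p below 0.05. Of the 7 values 5 were below 0 with a median of -1.02 relative to that of all genes, and the median of the 58 genes turned from -0.34 to 1.13. The family sums gave none called by edgeR, where 1.39% of features were (0.0826% higher and 1.31% lower), 1 with an unadjusted p below 0.05, and none by DESeq2.

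Labeled counts were higher with 4sU than without for nearly every tRNA gene, as for nearly every other gene. On the S. pombe scale, 55 of the 58 were higher with 4sU, where 98.8% of all genes were called. The median log2 difference was 5.09, or 5.04 with genes at 0 in the libraries without 4sU set to their bound, against 5.51 for all genes. The nuclear median was 4.82, the mitochondrial median 5.27 and that of the nuclear 2-thiouridine genes 3.41. Without the 20 min replicate 1 sample that had no 4sU, 57 genes were called, where 99.9% of all genes were, and the median of the 58 was 6.85, above the 6.16 of all genes, while that of the nuclear 2-thiouridine genes was 4.95. Without replicate 2, 27 genes were called, where 93.9% of all genes were. tI(UAU)L had the largest fitted difference, 9.31, with normalized counts of 18.9, 9.52, 235 and 15.3 with 4sU and 1 read in the 4 libraries without it, a ratio without to with 4sU of 0.00122 (exact counting interval 3.07e-05 to 0.00685). The tryptophan gene tW(CCA)P also had 1 read without 4sU and 68 with it, a ratio without to with 4sU of 0.00433 (exact counting interval 0.000108 to 0.025). With no read in the libraries without 4sU, tL(UAA)Q was at least 35.1-fold higher with 4sU. Of the 58 genes 5 reached 10 counts in labeled libraries with 4sU only. The 3 genes not called were tS(UGA)P, tQ(UUG)H and tH(GUG)E2. tQ(UUG)H had normalized counts of 12.8 and 12.2 at 20 min and 5.32 and 8.35 at 60 min with 4sU, and 10.3 and 0 at 20 min and 0.278 and 0.624 at 60 min without, so that 1 library without 4sU lay among those with it. On the TMM scale, which removes the shift of all genes, none was called by edgeR, where 4.66% of all genes were, and 5 of the 58 had an unadjusted p below 0.05.

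The unlabeled fraction is what the beads left behind, and there nuclear and mitochondrial genes differed in how many were called. Of the 58 genes 31 were lower with 4sU and none higher, where 85.1% of all genes were called. These were all 22 mitochondrial genes, with a median of -2.90, and 9 of the 36 nuclear genes, with a median of -1.23, against -2.62 for all genes. None of the 7 nuclear 2-thiouridine genes was called (median -0.86), while all 3 mitochondrial ones were (median -3.61). The difference between nuclear and mitochondrial genes was not tested. Read depth differed too, which limits how many nuclear genes could be called. Summed over the unlabeled libraries, nuclear tW(CCA)G1 had 2 counts with 4sU and 1 without, and tR(ACG)J had 2 and 4. Mitochondrial tE(UUC)Q had 301 in the 20 min replicate 1 library without 4sU, though tV(UAC)Q had only 1 with 4sU and 13 without.

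The mitochondrial glutamate gene tE(UUC)Q was among the lowest with reads in every library. With 4sU it had normalized counts of 6.32 and 4.60 at 20 min and 3.47 and 5.55 at 60 min, and without 4sU 139 and 95.6 at 20 min and 40.9 and 40.0 at 60 min. The arms were far apart, and it fell by 3.78 on the log2 scale (SE 0.63, adjusted p = 8.1e-09 by edgeR with Benjamini-Hochberg adjustment). tP(UGG)Q had 13.3 and 23.0 at 20 min and 4.62 and 13.4 at 60 min with 4sU and 144, 62.8, 54.2 and 78.4 without, and fell by 2.68 (SE 0.57).

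The nuclear threonine gene tT(UGU)G2 showed the opposite case. It had 8.21 and 9.20 at 20 min and 6.35 and 6.01 at 60 min with 4sU, and 8.29 and 4.69 at 20 min and 9.43 and 5.96 at 60 min without. The arms overlapped fully, and the log2 difference was 0.04 (SE 0.64). tK(UUU)D had 1.90, 12.5, 2.89 and 5.09 with 4sU and 18.0, 21.6, 5.50 and 10.2 without, which overlapped, with a difference of -1.22 (SE 0.63, adjusted p = 0.0585 by edgeR with Benjamini-Hochberg adjustment).

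Some genes had no read in the 4 unlabeled libraries with 4sU. Against a floor of 3 counts over those libraries, the mitochondrial isoleucine gene tI(GAU)Q, which reached 10 counts in unlabeled RNA without 4sU only, was at least 11.9-fold lower. The mitochondrial leucine gene tL(UAA)Q was at least 8.21-fold lower and the nuclear valine gene tV(AAC)G3 at least 5.75-fold lower. The nuclear proline gene tP(UGG)N2 was at least 4.93-fold lower and the nuclear arginine gene tR(ACG)D at least 4.11-fold lower. Other large falls were the mitochondrial threonine gene tT(UAG)Q2 at -4.39 (SE 0.86, adjusted p = 3.3e-07 by edgeR with Benjamini-Hochberg adjustment), the mitochondrial glutamine gene tQ(UUG)Q at -3.61 and the nuclear asparagine gene tN(GUU)P at -3.36.

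These numbers of called genes moved with single samples. Without the 20 min replicate 1 sample that received no 4sU, 24 genes were lower, 5 nuclear and 19 mitochondrial, where 83% of all genes were called, with medians of -1.16 and -2.86 against -2.81 for all genes. Leaving out replicate 1 left 4 genes, where 39.9% of all genes were called, and leaving out replicate 2 left 17, where 78.5% were. On the TMM scale the nuclear median was 0.98 and the mitochondrial median -0.64 against -0.29 for all genes, and 5 genes were called, where 56.2% of all genes were: tT(UGU)G2 and tI(UAU)L higher, and tE(UUC)Q, tT(UAG)Q2 and tI(GAU)Q lower.

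**Figure D4:**
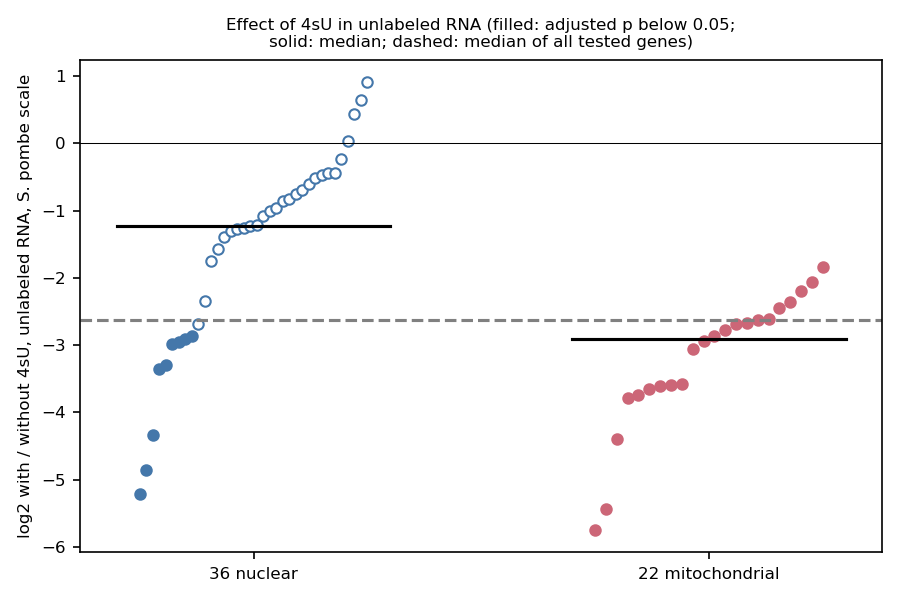
Log2 difference between unlabeled RNA with and without 4sU on the S. pombe scale (y axis) for the 36 nuclear (blue) and 22 mitochondrial (red) tRNA genes, each ordered by value. Filled points passed an adjusted p below 0.05, solid lines are medians (-1.23 and -2.90) and the dashed line is the median of all genes tested (-2.62). Values of genes with no read in 1 arm are fitted and depend on the fit's prior count.

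In total RNA few tRNA genes were called between cells with and without 4sU, and some had few reads in which a change could show. tI(GAU)Q, for one, had 5 reads with 4sU and 1 without. The median of the 58 genes was 0.03 without replicate 1 and 0.34 without replicate 2, against 0.36 and 0.07 for all genes. Of the 58 genes 1 was higher with 4sU and none lower, where 4.7% of all genes were called (3.49% higher), and the median was 0.27 against 0.22 for all genes. The gene was tI(UAU)L, with normalized counts of 7.16, 4.68, 7.03 and 5.50 with 4sU and 0, 1.84, 0.737 and 0 without. The arms did not overlap, and the log2 difference was 3.07 (SE 0.81, adjusted p = 0.00475 by edgeR with Benjamini-Hochberg adjustment). Those without 4sU were 4 reads in all, and the call was lost without replicate 1 (adjusted p = 0.157) or replicate 2 (adjusted p = 0.15), and with DESeq2. Without the 20 min replicate 1 sample that had no 4sU, tI(UAU)L was again the 1 gene called, where 3.72% of all genes were.

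Few tRNA genes were called for time in galactose, and many had few reads in which a change could show. Over all 12 libraries with 4sU, with time as the only term, edgeR's quasi-likelihood test called none of the 58 genes and 0% of all genes, 1 of the 58 had an unadjusted p below 0.05, and DESeq2 called none. This fit, which follows the study's design, holds no term for fraction, so that differences between fractions count as spread. With fraction as a covariate, added after seeing the data, 21.2% of all genes were called and 2 of the 58, the mitochondrial tL(UAA)Q higher and the nuclear tH(GUG)E2 lower. In total RNA none was called by edgeR, where 1.22% of all genes were (0.181% higher and 1.04% lower), 4 had an unadjusted p below 0.05 and DESeq2 called none.

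In labeled RNA 1 of the 58 genes was higher at 60 min, where 1.35% of all genes were called, 0.0989% higher and 1.25% lower. This was tI(UAU)L, with normalized counts of 18.9 and 9.52 at 20 min and 235 and 15.3 at 60 min, which were 47, 7, 177 and 11 reads. The time points overlapped, since 60 min replicate 2 lay between the 20 min values, and the difference came from 60 min replicate 1. The log2 difference was 3.05 (SE 0.63, adjusted p = 0.000197 by edgeR with Benjamini-Hochberg adjustment), and without the 60 min replicate 1 library it was 0.02 (adjusted p = 1.00). It was also not called without replicate 1 (0.68), on the TMM scale (adjusted p = 0.127) or by DESeq2 (adjusted p = 0.666). The other copy, tI(UAU)D, had 4.01 and 5.44 at 20 min and 29.2 and 4.18 at 60 min, again with 1 high library, and was not called. All 22 mitochondrial genes had a value above 0, with a median of 0.92 against -0.43 for all genes, but none was called. Without the 60 min replicate 1 library 14 of the 22 were above 0, with a median of 0.29 against -0.17 for all genes. On the TMM scale tP(UGG)Q was called higher and was the 1 gene of the 58 called, where 4.17% of all genes were. The nuclear median was -0.08. Nuclear tH(GUG)E2 had 4.82 and 12.2 at 20 min and 0 and 0 at 60 min. From 12 and 9 reads, it was at least 3.19-fold lower at 60 min against a floor of 3 counts. It was not called here, but was called lower in the fit of labeled RNA alone.

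In unlabeled RNA 2 of the 58 genes were lower at 60 min, where 30.5% of all genes were lower and 0.0494% higher. tI(UAU)L had 20.2 and 0 at 20 min and 2.31 and 0 at 60 min, so the 2 replicates disagreed at both times, and its log2 difference was -3.20 (SE 0.91, adjusted p = 0.0056 by edgeR with Benjamini-Hochberg adjustment). The mitochondrial methionine gene tM(CAU)Q1 had 3.16 and 3.94 at 20 min and 0.578 and 0 at 60 min, a ratio of 0.0725 with an exact counting interval of 0.00168 to 0.499. Its time points did not overlap, but they rested on 11 reads and 1 read (adjusted p = 0.0331 by edgeR with Benjamini-Hochberg adjustment). Neither was called by DESeq2. Leaving out replicate 1 gave 3 genes lower, tH(GUG)G2, tQ(UUG)H and tM(CAU)Q1, and leaving out replicate 2 gave tI(UAU)L alone. The difference between the time effects in labeled and unlabeled RNA was called for 1 of the 58 genes, tI(UAU)L, where 0.0824% of all genes were called, and that between labeled and total RNA for none by edgeR, where 0.033% were and 2 of the 58 had an unadjusted p below 0.05, a contrast not run in DESeq2.

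**Figure D5:**
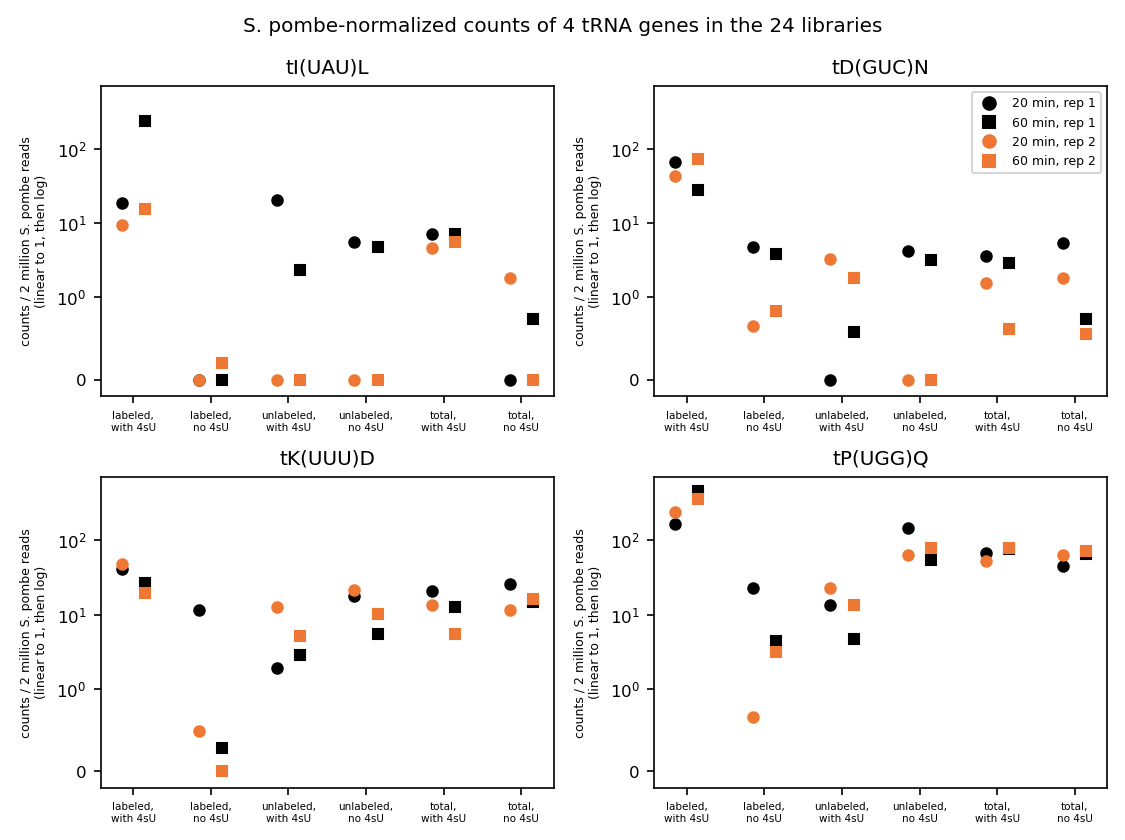
S. pombe-normalized counts (y axis, linear near 0 and log above) of tI(UAU)L, tD(GUC)N, tK(UUU)D and tP(UGG)Q in each of the 24 libraries (points, x axis by fraction, 4sU and time). The value of 235 for tI(UAU)L in labeled RNA at 60 min is 1 library, beside 15.3 in the other replicate, while tP(UGG)Q lay between 166 and 466 in all 4 labeled libraries with 4sU.

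Other RNA polymerase III transcripts gave a frame for the nuclear tRNA genes. SCR1, the RNA of the signal recognition particle, took 4.20 to 8.16% of the counts in total RNA, 0.484 to 1.20% in labeled RNA with 4sU and 1.76 to 7.82% in labeled RNA without it. Its labeled-to-total ratio with 4sU was -4.48 on the log2 scale (SE 0.40), and that of RPR1, the RNA of the RNase P that trims the 5′ ends of tRNA precursors, was -3.87. The small nucleolar RNA gene snR52 at -1.40 and the 5 tested of 6 RDN5 genes, for 5S rRNA, were lower too, and snR6, for the U6 splicing RNA, and RNA170 were not called. These ratios are on the same scale as the tRNA gene medians of -1.11 and -0.74 given above.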

How the data were processed

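RNA was sequenced from 24 libraries, total and split by thiol-specific biotin (MTSEA) and streptavidin beads. Bead-bound and flow-through RNA passed over RNeasy columns, which retain mainly RNA longer than mature tRNAs, and rRNA was depleted. Per the labels and the study's methods, the authors aligned reads with HISAT2 2.0.4 to R64 (sacCer3) and ASM294v2 and made strand-specific gene counts with featureCounts, with multi-mapping reads counted. The deposited counts are raw; the deposited normalized signal is, per the authors, the count divided by S. pombe reads per 2000000. 2 tables were used, raw counts for tests and normalized values for levels.

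Tests used edgeR 4.0.16 quasi-likelihood fits in R 4.3.3, Benjamini-Hochberg adjustment over the 6069 genes whose count exceeded 0 in 50% or more of the libraries, and a threshold of 0.05. Library sizes were the S. pombe totals for time and 4sU and TMM for labeled against total RNA, with time as covariate. DESeq2 1.42.0, other scalings and filters, a replicate block and omitted libraries were alternatives. Scripts were tested on counts simulated with a fixed spread, and recovered fold changes were checked only for deeply counted genes. That check does not cover genes with as few reads as most tRNA genes. Sums and figures used Python 3.11.15, pandas 2.3.3 and matplotlib 3.10.9. With 2 biological replicates per group, p-values measure the spread between libraries that is left after the terms of each fit. Per the study's methods, 1 culture was divided between both times and both 4sU arms. The labels do not say which libraries share a culture, and the main fits treated all libraries as independent. Fractions of 1 sample were fitted as separate libraries, without pairing.

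tRNA genes with at least 10 raw counts in any library were used for numbers. Named were the 5 highest nuclear and mitochondrial genes in labeled and total RNA, up to 4 called genes per direction and test, tI(UAU)L, the families of both lists and other RNA polymerase III transcripts. The members and lists were chosen with earlier results of these data known.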

Additional observations from a re-analysis of the deposited data

Results flagged for a closer look

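The effect of time on the isoleucine gene tI(UAU)L differed between labeled and unlabeled RNA with 4sU, by 6.25 on the log2 scale (SE 1.09, adjusted p = 3.66e-05 by the edgeR quasi-likelihood test, Benjamini-Hochberg adjusted, where 0.0824% of all genes were called), in a contrast chosen after seeing the data. With a replicate left out the labeled and unlabeled groups hold 1 library each, and these are assumed to vary as the total RNA groups do. Without replicate 1 it was 0.68 (adjusted p = 1.00), without replicate 2 it was 6.74 (adjusted p = 1.93e-05), and without the 60 min replicate 1 libraries it was not called (adjusted p = 0.729). The same contrast between labeled and total RNA gave 2.92 (SE 0.97, adjusted p = 1.00).

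The labeled-to-total ratio of SCR1 differed with minus without 4sU by -3.70 on the log2 scale (SE 0.87, adjusted p = 0.0452 by the edgeR quasi-likelihood test, Benjamini-Hochberg adjusted). Without 4sU its ratio was -0.81 (SE 0.70), which did not pass the test. The difference was -3.13 (adjusted p = 0.00521) without the 20 min replicate 1 sample that had no 4sU, -2.40 (adjusted p = 0.000388) without replicate 1, and -4.21 (adjusted p = 0.777) without replicate 2. On the S. pombe scale it was 0.96 (adjusted p = 0.41) and was not called.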

How the results depend on the processing

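Values are numbers of tRNA genes called, of 58, or of families, of 49. On the S. pombe scale labeled against total RNA gave 52 genes and 48 families with 4sU, all higher, 28 and 32 without 4sU, all lower, and 51 and 48 for the interaction, all higher. With 4sU the sign turned there for 53 of the 58 genes and 46 of the 49 families. Log2 ratios there, of genes and families named for the largest falls or on the lists, were tQ(UUG)H 0.48, tK(UUU)L 0.52 and tH(GUG)E2 0.69, and the sums Q(UUG) 0.68, T(UGU) 1.01, K(UUU) 1.25, S(AGA) 1.44, F(GAA) 2.06 and P(UGG) 2.17. TMM gave 1 gene (tP(UGG)Q) for time in labeled RNA, 0 genes for 4sU in labeled RNA, 5 in unlabeled RNA and 1 higher (tK(UUU)K) for time in unlabeled RNA. DESeq2 gave 0 for time in labeled and in unlabeled RNA and for 4sU in total RNA, and 3 genes (tD(GUC)N, tM(CAU)Q2 and tP(UGG)Q) and 2 families for labeled against total RNA without 4sU, where no filter gave 2 and 2. A filter of at least 10 counts in 2 libraries, which tests fewer genes, gave 0 for 4sU in total and 18 in unlabeled RNA. Time fitted within 1 fraction gave 2 in labeled and 0 in unlabeled RNA, and time over all fractions with fraction as covariate, added after seeing the data, gave 2 (tH(GUG)E2 and tL(UAA)Q). Leaving out a replicate leaves 1 library per group, so the spread then comes from the other groups or, with time as covariate, from the additive fit. It gave 0 to 1 for time in labeled RNA and for its contrast with unlabeled RNA, 1 to 3 for time in unlabeled RNA, 27 to 49, 0 to 0 and 4 to 17 for 4sU in labeled, total and unlabeled RNA, 10 to 14 genes with 4sU and 0 to 8 genes and 0 to 9 families without 4sU for labeled against total RNA, and 0 to 1 for both interactions. Without the labeled 20 min replicate 1 library that had no 4sU, labeled against total RNA without 4sU gave 14 genes and 13 families, and without the whole sample 16 and 15. Without the 60 min replicate 1 libraries, added after seeing the data, time gave 0 in labeled RNA, 1 in unlabeled RNA and 0 in their contrast. Causes were not tested. Of 66 pairs of groups, deviations of same-numbered replicates correlated above 0.1 in 36 (range -0.25 to 0.35), and the main fits did not take the numbers as pairs. Fractions of 1 sample come from the same RNA, so labeled against total RNA is paired by design. The main fits left that pairing out. With a replicate block 54 genes were called for 4sU in labeled, 31 in unlabeled RNA, 16 and 1 for labeled against total RNA with and without 4sU, and 1 and 2 for time in labeled and unlabeled RNA. The median tRNA share of 0.0103% was 0.00918% with 1 copy per family and 0.00405% for nuclear genes alone. The 38 genes at 0 and the 197 genes with 1 to 9 counts were compared only within family sums.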
